A study of Mus musculus with 8 samples.

Results

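The G1 machinery described here is the set of 10 genes that encode the D-type cyclins (Ccnd1, Ccnd2, Ccnd3), the E-type cyclins (Ccne1, Ccne2), their partner kinases (Cdk4, Cdk6, Cdk2) and the inhibitors p21 (Cdkn1a) and p27 (Cdkn1b). They were chosen by name and not by a filter on measured values, but with earlier results of these data known. All 10 were among the 24015 genes of the count table. RNA was measured in 8 libraries, 2 for each of 4 groups, from the mouse aorta-gonad-mesonephros (AGM) region with its vitelline and umbilical arteries at E11.5. The groups were wild type and Sl/Sl hematopoietic clusters, sorted as Ter119- VE-Cadherin+ c-Kit+ cells, and wild type and Sl/Sl endothelium, sorted as Ter119- VE-Cadherin+ c-Kit- CD41- CD45- cells. Sl/Sl embryos are homozygous for a Steel deletion that removes Kitl, the gene for the ligand of the receptor Kit, from every tissue, so that the endothelium and the clusters are mutant together. Each library was made from 100 cells of embryos pooled by genotype, and c-Kit, the receptor of the missing ligand, was itself a sort marker. The design lets the G1 genes be compared between genotypes within a cell type and between the cell types within a genotype.

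Passage through G1 depends on D-type cyclins, which respond to growth factor receptors and, with Cdk4 or Cdk6, begin the phosphorylation of the retinoblastoma protein. Release of E2F factors then allows transcription of E-type cyclins, which act with Cdk2 to bring cells into S phase, and of the replication genes. The inhibitor p27 is abundant in quiescent cells and is removed mainly by protein degradation, whereas p21 is a classic transcriptional target of p53 and accumulates after DNA damage or on leaving the cycle. Blood cell emergence from arterial endothelium in the AGM is accompanied by entry into the cell cycle, and Kit signalling supports survival and proliferation of blood progenitors.

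The 250 bases before the transcription start in RefSeq (GRCm38.p6) are shown for 3 of the G1 genes, Ccne1, Cdk2 and Cdkn1a. As a replication gene for reference, those of Mcm6 are shown too. A RefSeq promoter was matched for 7 of the 10 genes, in 9 windows, and Ccnd1, Ccnd2 and Ccne2 had no entry. Capitals mark GC boxes (GGGCGG), E2F letters (TTTCCCGC, TTTCGCGC, TTTGCCGC or TTTGGCGC) and p53 half-sites, each searched on both strands. E2F letters may overlap each other and GC boxes, and neighbouring capitals in Mcm6 come from 2 overlapping E2F matches.
Ccne1, chr7:38107491-38107740, minus strand: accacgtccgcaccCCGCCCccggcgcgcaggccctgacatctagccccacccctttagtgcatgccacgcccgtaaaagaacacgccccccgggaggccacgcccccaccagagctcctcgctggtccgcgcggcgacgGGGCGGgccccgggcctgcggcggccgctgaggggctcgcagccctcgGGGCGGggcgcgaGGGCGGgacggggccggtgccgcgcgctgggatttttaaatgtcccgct
Cdk2, chr10:128705052-128705301, minus strand: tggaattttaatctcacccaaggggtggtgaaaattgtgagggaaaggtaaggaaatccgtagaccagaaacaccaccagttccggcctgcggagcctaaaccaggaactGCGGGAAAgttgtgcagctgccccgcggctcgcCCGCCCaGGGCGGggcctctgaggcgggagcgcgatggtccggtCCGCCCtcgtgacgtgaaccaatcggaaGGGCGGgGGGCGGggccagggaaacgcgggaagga
Cdkn1a, chr17:29090729-29090978, plus strand: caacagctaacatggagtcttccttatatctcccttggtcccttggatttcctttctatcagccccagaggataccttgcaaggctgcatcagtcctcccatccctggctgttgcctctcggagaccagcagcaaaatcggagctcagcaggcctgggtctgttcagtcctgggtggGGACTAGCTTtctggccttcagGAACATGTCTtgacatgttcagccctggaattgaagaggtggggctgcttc
Mcm6, chr1:128359706-128359955, minus strand: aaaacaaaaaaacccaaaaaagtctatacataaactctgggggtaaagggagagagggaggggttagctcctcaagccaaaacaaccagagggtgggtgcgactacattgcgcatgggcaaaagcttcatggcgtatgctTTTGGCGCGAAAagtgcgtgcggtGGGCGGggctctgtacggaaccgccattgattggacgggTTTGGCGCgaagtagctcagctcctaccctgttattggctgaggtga
GC boxes were found in 6 of the 7 G1 genes with a promoter, as 4 copies in Ccne1 and 5 in Cdk2. By window they were in 7 of 9 for the G1 genes, 14 of 19 for S phase genes and 11 of 18 for mitotic genes. Of the 32851 mouse promoter windows of this length, 32.7% held them. E2F letters were found in 1 of the 9 windows, that of Cdk2, at 140 bases before the start, and in 1.86% of all windows. Among the 19 windows of 17 S phase genes, 5 held E2F letters, and Mcm6 held 3 matches. Of all windows, 7.13% held a p53 half-site, and the upstream window of Cdkn1a held 2, at 73 and 51 bases before the start, while its other window, at chr17:29093519-29093768, held none. The pentamer CCAAT was found in 3 of the 9 G1 windows, 14 of 19 S phase windows and 15 of 18 mitotic windows, against 33.8% of all windows. These are matches of letters and do not show binding.

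Counts on genes summed to between 8933236 and 13428214 per library. As a check of the labels, Kitl counts were 1250 and 923 for wild type endothelium with 6 and 2 for Sl/Sl endothelium, and 110 and 0 for wild type clusters with 1 and 3 for Sl/Sl clusters, which leaves wild type clusters replicate 2 without a distinguishing level. The summed level of 16 hematopoietic markers ran from 1859 to 3545 in clusters, in CPM (counts scaled to library totals after TMM correction), and from 322 to 366 CPM in endothelium. The 16 endothelial markers summed to 7931 to 8934 CPM in endothelium and, in clusters, to 1449 and 493 CPM in wild type and 3504 and 871 CPM in Sl/Sl, and no marker of either list was at 0 in any library. Sl/Sl clusters replicate 1 thus carried the most endothelial marker RNA among the clusters. The 9 mesenchymal markers summed to between 33.6 and 4534 CPM, lowest in Sl/Sl clusters replicate 1 and highest in Sl/Sl clusters replicate 2. The 9 macrophage markers summed to 129 to 296 CPM in clusters and 3.85 to 17.0 CPM in endothelium, and the 9 erythroid markers to 24.4 to 266 CPM over all libraries, with Hba-a1 and Hbb-b1 at 0 in each.

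Compared per exon length, as RPKM (counts scaled by library total and exon length), Cdk4 had by far the highest level of the 10 genes and Cdk6 the lowest in each of the 4 groups. Cdk4, the G1 kinase that pairs with D-type cyclins in most tissues, averaged 494 ± 159 and 762 ± 258 RPKM in wild type and Sl/Sl clusters, and 762 ± 12.7 and 680 ± 47.8 RPKM in wild type and Sl/Sl endothelium (mean ± SD, n = 2). Cdk6, the kinase used beside Cdk4 in blood cells, averaged 2.27 ± 0.25, 2.39 ± 2.80, 0.12 ± 0.042 and 2.15 ± 2.15 RPKM in the same order. Cdk4 therefore made up at least 99.3% of the summed Cdk4 and Cdk6 level in every library. The table's exon length for Cdk4, 1346 bases, covers 41.4% of the exon bases that the GENCODE vM1 annotation of the same build gives to Cdk4, and that of Cdk6, 2470 bases, covers 66.1%, so RPKM depends on the gene model used.

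Between these ends the order differed by cell type. In wild type clusters Ccnd2 (59.3 ± 3.41 RPKM) stood above the ranges of Cdk2 (49.2 ± 5.24), Cdkn1b (41.5 ± 12.2) and Ccne1 (40.0 ± 13.2), which overlapped as neighbours, and these stood above Cdkn1a (25.05 ± 6.99), Ccnd3 (22.9 ± 6.96), Ccne2 (16.5 ± 0.11) and Ccnd1 (10.9 ± 3.71). By its means, wild type endothelium had Ccnd2 (47.3 ± 1.00) above Cdk2 (42.9 ± 2.00), Cdkn1b (36.6 ± 14.5) and Ccnd3 (34.6 ± 1.85), then Ccnd1 (23.0 ± 8.91), Ccne1 (18.4 ± 9.43) and Ccne2 (11.02 ± 6.21), and Cdkn1a (2.23 ± 2.56) near the bottom, though the range of Cdkn1b there met that of Ccnd2. Cdkn1a thus ranked 6 in wild type clusters and 9 in wild type endothelium, and Ccnd1 ranked 9 and 6. In Sl/Sl clusters the genes from rank 2 to rank 6 (Cdk2, Ccnd2, Ccnd3, Cdkn1b, Ccne1) each overlapped the next, and in Sl/Sl endothelium so did those from rank 2 to rank 9 (Cdkn1b, Cdk2, Ccnd3, Ccnd2, Ccnd1, Cdkn1a, Ccne1, Ccne2), so neighbours in these runs cannot be ordered. Genes further apart in a run could be, as Ccnd3 in Sl/Sl endothelium lay above Ccnd1, Cdkn1a, Ccne1 and Ccne2 in both libraries, and Cdk2 in Sl/Sl clusters above Cdkn1b and Ccne1.

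**Figure D1:**
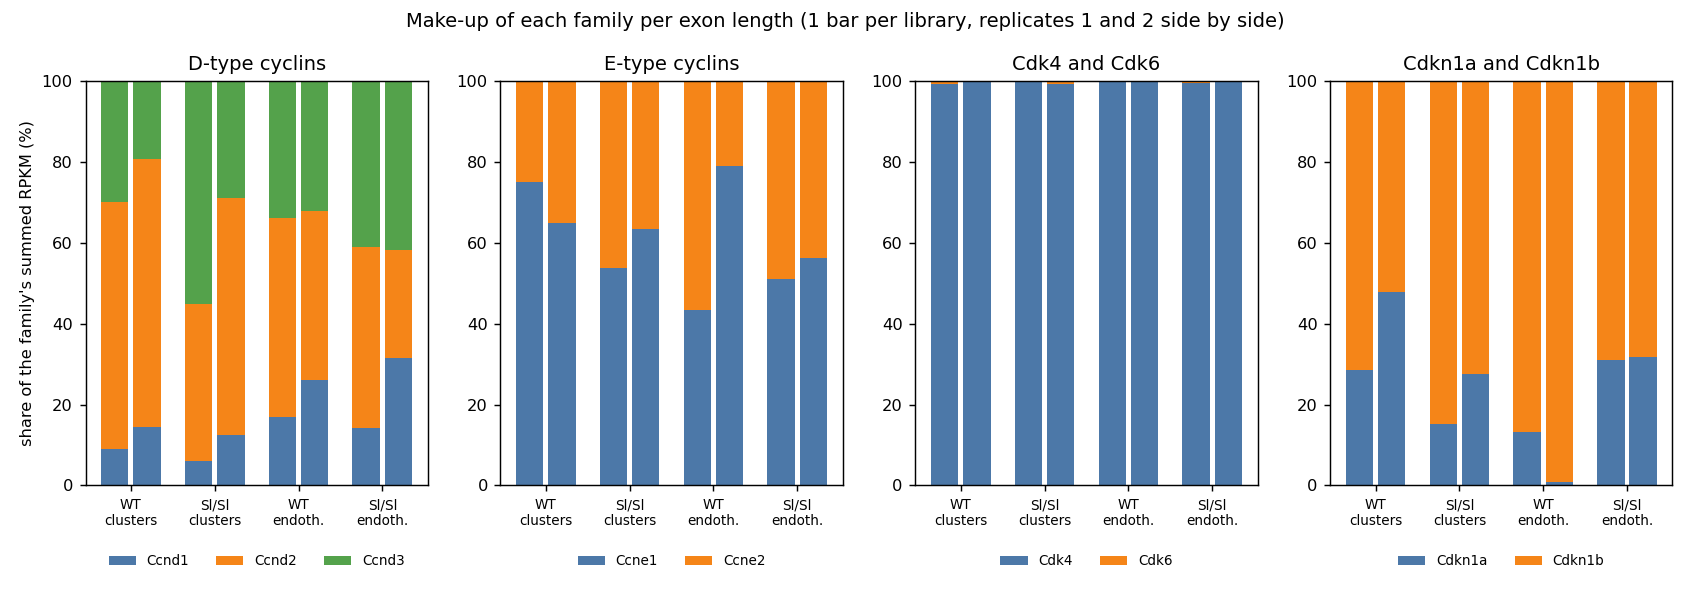
Share of each gene in the summed RPKM of its family (y axis, percent), 1 stacked bar per library, with the 2 replicates of each group side by side. Ccnd2 takes 61.2% and 66.2% of the D-type cyclins in wild type clusters and 26.8% to 49.0% in the 4 endothelial libraries, and Cdk6 is too small to see beside Cdk4.

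Within the D-type cyclins, Ccnd2 supplied most of the RNA in wild type clusters, at 61.2% and 66.2% of the summed RPKM. It supplied 38.9% and 58.6% in Sl/Sl clusters, while wild type endothelium had 49.0% and 41.7% and Sl/Sl endothelium had 44.8% and 26.8%. Ccnd1 made up 5.92% to 14.5% in the 4 cluster libraries and 14.2% to 31.4% in the 4 endothelial libraries, ranges that overlapped at 14.2% to 14.5%. Ccnd3 made up 19.3% and 29.9% in wild type clusters and 32.1% to 41.8% in endothelium, and 55.2% in Sl/Sl clusters replicate 1 against 29.0% in replicate 2. The summed level of the D-type cyclins itself ranged only from 80.2 to 121 RPKM over the 8 libraries, so the family differed more in its make-up than in its sum. Shares are descriptions and were not tested.

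Ccne1 made up 53.9% to 74.99% of the E-type cyclins in clusters and 43.3% to 79.1% in endothelium. The split between Ccne1 and Ccne2 is uncertain because 1734 of the 3220 exon bases of Ccne2 (53.9%) overlap exons of Ints8 on the opposite strand, and the strand setting of the counting is not given in the sources used here. With only the 1486 bases that Ccne2 does not share as its length, Ccne1 would make up 35.02% to 58.0% in clusters and 26.0% to 63.6% in endothelium. Of the inhibitors, Cdkn1b was the larger in every library. Cdkn1a made up 28.6% and 47.7% of their sum in wild type clusters and 15.2% and 27.5% for Sl/Sl, and 13.3% and 0.89% in wild type endothelium against 31.1% and 31.9% for Sl/Sl, so its share was lower in Sl/Sl than in wild type clusters and higher in Sl/Sl than in wild type endothelium, in both libraries each time.

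Endothelium and clusters were compared first, since this was where most genes of the whole table differed. By the quasi-likelihood test of edgeR, with adjusted p-values after Benjamini-Hochberg over 13908 genes and a threshold of 0.1, 0 of the 10 G1 genes passed in wild type, where 8.24% of all genes did, 0 passed in Sl/Sl (2.83% of all genes), and 0 passed over both genotypes (16.6% of all genes). At an unadjusted p under 0.05 the G1 genes numbered 2 in wild type (19.5% of all genes), 1 in Sl/Sl (14.4%) and 3 over both genotypes (26.6%), and DESeq2 on the 8 libraries called 2, 1 and 3 at its adjusted p under 0.1, where it called 19.8%, 12.7% and 25.5% of all genes. Their median log2 fold change over both genotypes was -0.40, where that of all genes was -0.07. Fewer cells with a transcript and less RNA per cell cannot be told apart in bulk samples such as these.

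**Figure D2:**
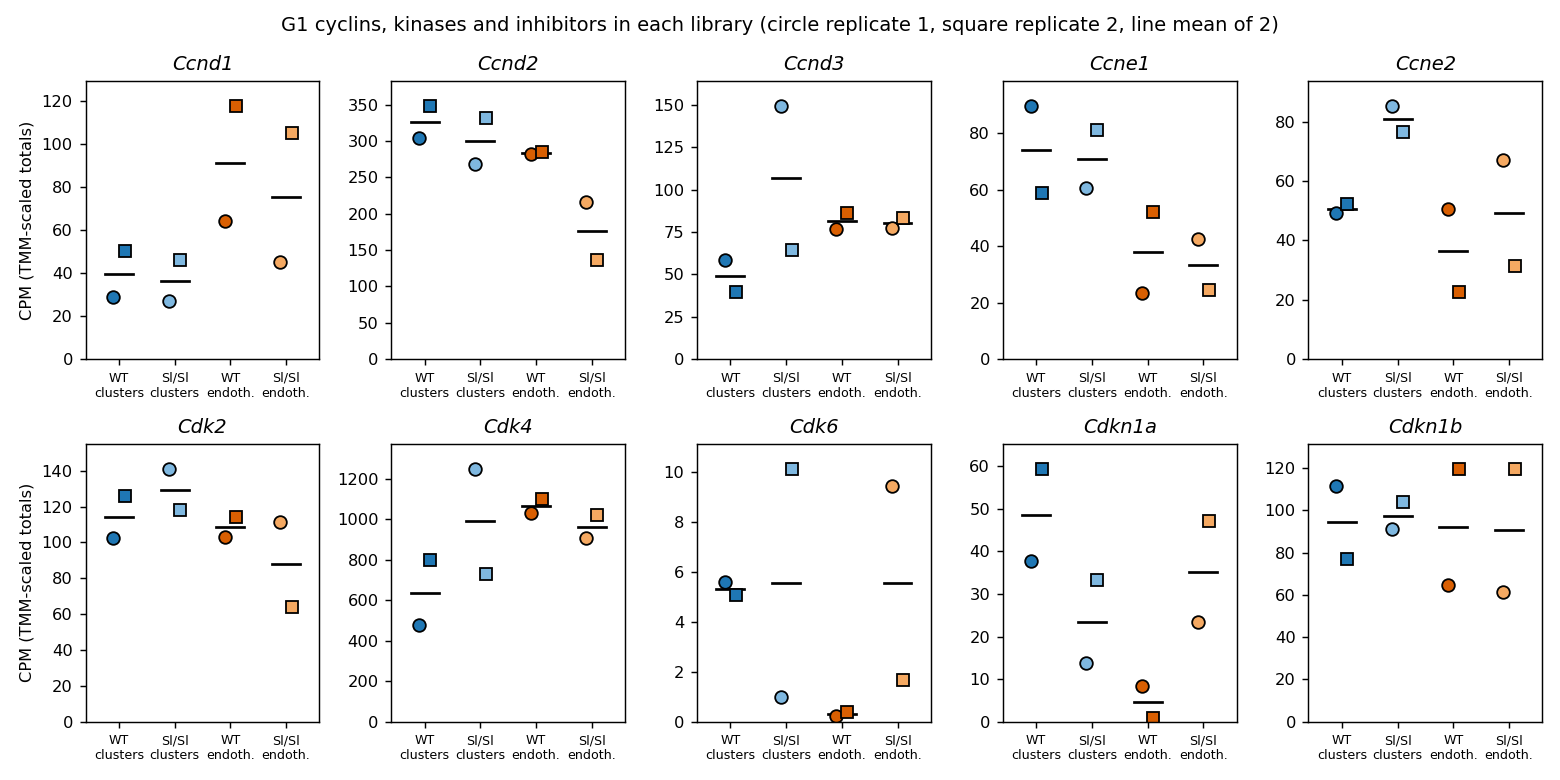
Level of each G1 gene in CPM (y axis, linear from 0, with its own scale for each gene) in the 4 groups (x axis), with a circle for replicate 1, a square for replicate 2 and a line at the mean of 2. Ccne1 lies below all 4 cluster libraries in all 4 endothelial libraries, and Cdkn1a is lowest in wild type endothelium, at 8.34 and 0.91 CPM.

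Among the D-type cyclins, Ccnd1 tended to the endothelium and Ccnd2 to the clusters. Ccnd1, the cyclin most closely tied to growth factor signalling (mm9 chr7:152115836-152125830, minus strand, 5 exons), was at 29.0 and 50.1 CPM in wild type clusters and 26.8 and 46.2 CPM in those of Sl/Sl, and wild type endothelium had 64.5 and 118 CPM and Sl/Sl endothelium 45.2 and 106 CPM. Only Sl/Sl endothelium replicate 1 lay within the range of the clusters. Over both genotypes its log2 fold change in endothelium was 1.12 ± 0.40 (SE, 95% interval 0.22 to 2.02), with an adjusted p of 0.113 in edgeR's quasi-likelihood test. Without Sl/Sl endothelium replicate 1 the value was 1.34 with an adjusted p of 0.0632, and without wild type endothelium replicate 1 it was 1.31 with an adjusted p of 0.0944, so each of these libraries decides the call. In the other direction it was 0.75 (adjusted p = 0.321) without Sl/Sl endothelium replicate 2, and DESeq2 on the 8 libraries gave an adjusted p of 0.0528.

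Ccnd2, the D-type cyclin of many progenitor cells (mm9 chr6:127075727-127101066, minus strand, 5 exons), was at 304 and 348 CPM in wild type clusters and 268 and 332 CPM in those of Sl/Sl, and wild type endothelium had 283 and 285 CPM and Sl/Sl endothelium 216 and 137 CPM. Endothelium lay below clusters in each genotype taken alone, by a narrow gap in wild type. Its log2 fold change was -0.20 ± 0.28 for wild type and -0.77 ± 0.28 for Sl/Sl (adjusted p = 0.253, edgeR's quasi-likelihood test), and -0.48 ± 0.20 over both (adjusted p = 0.155). Leaving out Sl/Sl endothelium replicate 1 gave -0.69 over both genotypes, with an adjusted p of 0.0758, and leaving out replicate 2 of that group gave -0.34, with an adjusted p of 0.38, and DESeq2 on the 8 libraries gave 0.0912. Ccnd3 (mm9 chr17:47642000-47736637, plus strand, 7 exons) was at 76.7 to 86.0 CPM in all 4 endothelial libraries, above the 58.2 and 39.6 CPM of wild type clusters and within the range of Sl/Sl clusters, and its log2 fold change over both genotypes was 0.16 ± 0.31.

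Ccne1, which drives Cdk2 at the entry into S phase (mm9 chr7:38883003-38892509, minus strand, 12 exons), was lower in endothelium in every library. The clusters were at 89.4 and 58.7 CPM for wild type and 60.5 and 80.9 CPM for Sl/Sl, and the endothelium was at 23.4 and 52.0 CPM for wild type and 42.4 and 24.5 CPM for Sl/Sl. All 4 endothelial libraries lay below all 4 cluster libraries, which held for 1 of the 10 G1 genes and for 9.57% of all genes tested in this direction. The log2 fold change over both genotypes was -1.03 ± 0.37 (95% interval -1.87 to -0.18, adjusted p = 0.120 in edgeR's quasi-likelihood test), with -0.98 ± 0.53 for wild type and -1.08 ± 0.53 for Sl/Sl. Without wild type endothelium replicate 2, the endothelial library highest in Ccne1, it was -1.38 with an adjusted p of 0.0737, without replicate 1 of that group it was -0.79 with an adjusted p of 0.274, and DESeq2 on the 8 libraries gave an adjusted p of 0.0473. Ccne2 (mm9 chr4:11118498-11131926, plus strand, 13 exons) ranged from 49.1 to 85.3 CPM in clusters and from 22.6 to 67.0 in endothelium, with overlap, and its log2 fold change was -0.59 ± 0.37.

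Of the kinases, Cdk4 (mm9 chr10:126500659-126504338, plus strand, 8 exons) was at 476 and 798 CPM in wild type clusters and 1033 and 1100 in wild type endothelium, groups that did not overlap. Its log2 fold change in wild type was 0.74 ± 0.30, with an adjusted p of 0.213 in edgeR's quasi-likelihood test. In Sl/Sl the clusters were at 1250 and 731 CPM and the endothelium at 906 and 1022, between them, and the log2 fold change was -0.04 ± 0.30. The cluster library highest in Cdk4, Sl/Sl replicate 1, was also the one with the highest sum of endothelial markers among clusters, 3504 CPM. The next cluster library in Cdk4, wild type replicate 2, had the lowest sum, 493 CPM. The part of these markers in the Cdk4 level was not tested.

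Cdk2, the partner of the E-type cyclins (mm9 chr10:128134995-128142107, minus strand, 8 exons), was at 102 to 141 CPM in clusters and 64.2 to 114 in endothelium, with a log2 fold change of -0.31 ± 0.25 over both genotypes. Cdk6 (mm9 chr5:3344312-3522225, plus strand, 7 exons) had 65 and 65 counts in wild type clusters and 12 and 145 counts in those of Sl/Sl, with 3 and 4 counts for the endothelium of wild type and 108 and 14 counts for that of Sl/Sl. Wild type endothelium was thus the lowest group, at 0.24 and 0.40 CPM, for which exact Poisson 95% intervals, covering counting error only, ran from 0.049 to 0.70 and from 0.11 to 1.03 CPM. The log2 fold change in wild type was -4.01 ± 1.97 (95% interval -8.45 to 0.42, adjusted p = 0.305, edgeR's quasi-likelihood test). In Sl/Sl the replicates of both cell types lay far apart, and the log2 fold change was 0.00 ± 1.72. The library with 145 counts, Sl/Sl clusters replicate 2, was also the one with the highest sum of mesenchymal markers, 4534 CPM. The next in Cdk6, Sl/Sl endothelium replicate 1 with 108 counts, had a sum of only 86.3 CPM. Wild type endothelium replicate 1, with 3 counts of Cdk6, had a sum of 1434 CPM. The part of these markers in the Cdk6 level was not tested.

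Cdkn1a, which encodes p21 (mm9 chr17:29227931-29237667, plus strand, 4 exons; a promoter window is printed above), was the G1 gene closest to the threshold in wild type. Its level was 37.7 and 59.4 CPM in wild type clusters and 8.34 and 0.91 CPM in wild type endothelium, from 438, 763, 105 and 9 counts. The groups did not overlap, and the log2 fold change was -3.38 ± 1.04 (95% interval -5.72 to -1.05), with an adjusted p of 0.108 in edgeR's quasi-likelihood test. Leaving out any 1 of 5 libraries took the adjusted p below 0.1, namely wild type endothelium replicate 1 (log2 fold change -5.72, adjusted p = 0.0343) and either replicate of Sl/Sl clusters (0.0874 and 0.0896) or of Sl/Sl endothelium (0.0792 and 0.0835), whose removal left the log2 fold change between -3.41 and -3.38. Without wild type endothelium replicate 2, the library with 9 counts, it was -2.54 with an adjusted p of 0.236. DESeq2 on the 8 libraries gave an adjusted p of 0.00438. In Sl/Sl the clusters were at 13.8 and 33.2 CPM and the endothelium at 23.5 and 47.0, which overlapped, with a log2 fold change of 0.58 ± 0.94.

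Cdkn1b, which encodes p27 (mm9 chr6:134870419-134875543, plus strand, 3 exons), stood level between the cell types, at 77.2 to 112 CPM in clusters and 61.6 to 120 in endothelium. Its log2 fold change over both genotypes was -0.07 ± 0.31, and the 95% interval, -0.78 to 0.63, leaves room for a change of either sign. In wild type alone, 7 of the 10 G1 genes did not overlap between the cell types (Ccnd1, Ccnd3 and Cdk4 higher, Ccnd2, Ccne1, Cdk6 and Cdkn1a lower in endothelium), as did 50.6% of all genes. In Sl/Sl 4 of 10 did not overlap (Ccnd2, Ccne1, Ccne2 and Cdk2, all lower in endothelium), beside 46.3% of all genes.

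Between the genotypes, in hematopoietic clusters, the D-type cyclin Ccnd3 stood furthest apart. Ccnd3 was at 58.2 and 39.6 CPM in wild type clusters and at 149 and 64.3 CPM in Sl/Sl clusters. The groups did not overlap, though most of the difference came from Sl/Sl replicate 1. Its log2 fold change was 1.13 ± 0.45 (95% interval 0.11 to 2.14), with an unadjusted p of 0.0327 and an adjusted p of 1 in edgeR's quasi-likelihood test. Without Sl/Sl clusters replicate 1 the log2 fold change was 0.40, and without Sl/Sl clusters replicate 2 it was 1.61. The endothelial markers were also highest among clusters in Sl/Sl replicate 1, at 3504 CPM. Sl/Sl replicate 2 had more Ccnd3 than wild type replicate 1 but a lower sum of these markers, 871 against 1449 CPM. The part of these markers was not tested. Of the 2260 exon bases of Ccnd3, 358 (15.8%) overlap Bysl on the opposite strand, and Bysl itself had a log2 fold change of 0.02 ± 0.76.

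In this comparison 0 of the 10 G1 genes and 0% of all genes passed the adjusted threshold, by edgeR's quasi-likelihood test, and 1 of the 10, Ccnd3, had an unadjusted p under 0.05, beside 4.22% of all genes. DESeq2 on the 8 libraries called 0 of the 10 and 1.36% of all genes. The genotypes did not overlap for 3 of the 10 (Ccnd3 and Ccne2 higher, Cdkn1a lower in Sl/Sl), beside 32.7% of all genes. Ccne2 was at 49.1 and 52.3 CPM in wild type clusters against 85.3 and 76.7 CPM for Sl/Sl, a tight pair on each side, with a log2 fold change of 0.68 ± 0.53. Cdkn1a, at 37.7 and 59.4 against 13.8 and 33.2 CPM, had a log2 fold change of -1.04 ± 0.95.

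For the other 7 G1 genes the genotypes overlapped in clusters. Cdk4 had a log2 fold change of 0.64 ± 0.30 (unadjusted p = 0.0625, edgeR's quasi-likelihood test), which ranged from 0.20 without Sl/Sl clusters replicate 1 to 1.05 without wild type clusters replicate 2. The values were within 0.2 of 0 for Ccnd1, Ccnd2, Ccne1, Cdk2, Cdk6 and Cdkn1b, but of these only Ccnd2 (-0.74 to 0.50) and Cdk2 (-0.61 to 0.97) had a 95% interval within a change of 1 on the log2 scale in either direction. A 2-fold change lay within the interval of each of the other 4. The median log2 fold change of the 10 genes was 0.05, and that of all genes was 0.03.

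In endothelium, which held the most Kitl RNA in wild type, the inhibitor Cdkn1a had the smallest p-value of the 10 genes between the genotypes, and Cdk6 the largest log2 fold change. Cdkn1a was at 8.34 and 0.91 CPM in wild type and 23.5 and 47.0 CPM in Sl/Sl endothelium, without overlap. The log2 fold change was 2.92 ± 1.02 (95% interval 0.63 to 5.21), with an unadjusted p of 0.018 and an adjusted p of 1 in edgeR's quasi-likelihood test. It was 5.26 without wild type endothelium replicate 1 and 2.10 without replicate 2, so its size rests on the 9 counts of replicate 2, although the direction was higher in both Sl/Sl libraries. Sl/Sl endothelium lay within the range of wild type and Sl/Sl clusters (13.8 to 59.4 CPM). Wild type endothelium lay below that range, though its replicate 1, at 8.34 CPM, was not far from Sl/Sl clusters replicate 1, at 13.8 CPM. The share of all genes with this pattern was not counted.

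Ccnd2 was at 283 and 285 CPM in wild type endothelium against 216 and 137 CPM for Sl/Sl, and its log2 fold change was -0.69 ± 0.28 (unadjusted p = 0.0348, adjusted p = 1, edgeR's quasi-likelihood test). Cdk6, at 3 and 4 counts against 108 and 14 for Sl/Sl, had a log2 fold change of 4.08 ± 1.97, with a 95% interval from -0.37 to 8.52. It was 2.35 without Sl/Sl endothelium replicate 1, which held most of the counts. Cdk4 was lower in Sl/Sl, at 906 and 1022 against 1033 and 1100 CPM, by a log2 fold change of only -0.15 ± 0.30. These genes with Cdkn1a made 4 of 10 that did not overlap between genotypes, beside 28.5% of all genes.

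By edgeR's quasi-likelihood test 0 of the 10 G1 genes, and 0% of all genes, passed the adjusted threshold in endothelium, 2 of the 10 had an unadjusted p under 0.05 beside 4.17% of all genes, and DESeq2 on the 8 libraries called 0 of the 10 and 1.35% of all genes. The log2 fold changes of Ccnd1 (-0.27 ± 0.56), Ccnd3 (-0.02 ± 0.44), Ccne1 (-0.17 ± 0.53), Ccne2 (0.43 ± 0.53), Cdk2 (-0.31 ± 0.35) and Cdkn1b (-0.03 ± 0.44) were smaller than their standard errors. Each of their 95% intervals reached past a log2 change of 1 in at least 1 direction, least far for Ccnd3 (-1.02) and furthest for Ccne2 (1.62). A 2-fold change in that direction thus lay within the interval of each. With 2 libraries against 2, the smallest p that an exact permutation test allows is 0.333.

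**Figure D3:**
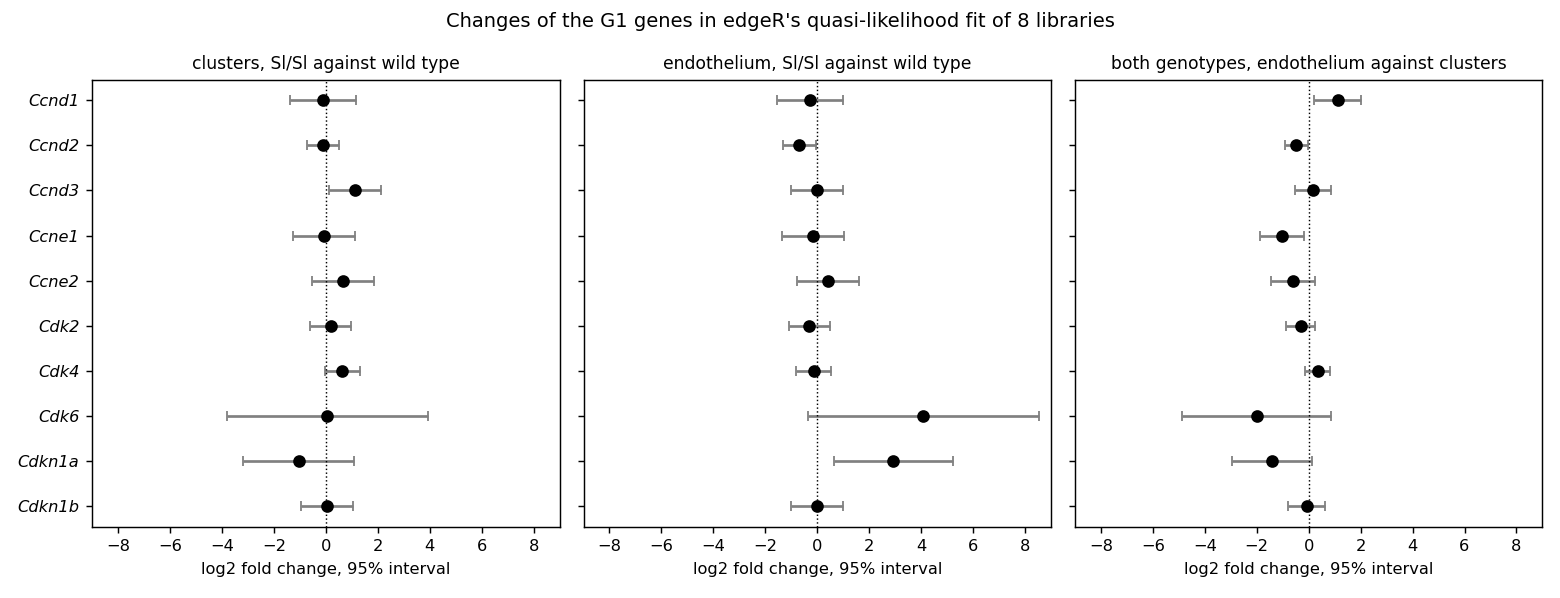
Log2 fold change of each G1 gene (x axis) with its 95% interval from edgeR's quasi-likelihood fit of 8 libraries, for Sl/Sl against wild type in clusters (left) and endothelium (middle) and for endothelium against clusters over both genotypes (right). Intervals are narrow for Ccnd2, Cdk2 and Cdk4 and widest for Cdk6, and Cdkn1a lies at -1.04 in clusters and 2.92 in endothelium.

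The difference between the genotype effects of the 2 cell types was tested as an interaction. For Cdkn1a it was -3.96 ± 1.38 on the log2 scale (clusters minus endothelium, 95% interval -7.08 to -0.85), with an unadjusted p of 0.0182 and an adjusted p of 0.902 in edgeR's quasi-likelihood test. It was the only one of the 10 G1 genes with an unadjusted p under 0.05 here, beside 5.29% of all genes, and 0 of the 10 and 0% of all genes passed the adjusted threshold, where DESeq2 on the 8 libraries called 0 of the 10 and 1.3% of all genes. Cdk4 (0.78 ± 0.42) and Ccnd3 (1.14 ± 0.63) leaned the other way, towards a larger value in clusters. Pooled over the cell types, Sl/Sl against wild type gave 0 of 10 at the adjusted threshold (0% of all genes) and 0 of 10 at an unadjusted p under 0.05 (4.85% of all genes), by edgeR's quasi-likelihood test, and DESeq2 called 0 of 10 and 0.948% of all genes. The largest values there were 2.07 ± 1.27 for Cdk6 and 0.94 ± 0.67 for Cdkn1a, which joined unlike values in the 2 cell types, and the nearest to the threshold was Ccnd2 at -0.40 ± 0.20 (unadjusted p = 0.0683).

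Other genes of the cycle were read from 3 lists of known function, 40 further G1/S regulators, 20 S phase genes and 20 mitotic genes, of which 39, 20 and 20 could be tested. Endothelium had less RNA of the S phase genes than clusters in both genotypes. Over both genotypes 8 of 20 S phase genes fell in endothelium and 0 rose (adjusted p under 0.1, edgeR's quasi-likelihood test, where 8.12% of all genes fell and 8.48% rose), and all 20 had log2 fold changes below 0, with a median of -0.71. The furthest were Cdc6, which loads the replicative helicase (-2.0 ± 0.46, adjusted p = 0.0249), Chaf1a, a chromatin assembly factor (-1.65 ± 0.45, adjusted p = 0.0478), and the helicase subunit Mcm6 (-1.21 ± 0.22, adjusted p = 0.00917). Mcm6, whose promoter is printed above, was at 335 to 383 CPM in clusters and 100 to 187 CPM in endothelium. Ccne1 thus had a log2 fold change (-1.03) close to that of Mcm6, but with a larger standard error.

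Cdc6 was at 55.6 to 85.2 CPM in the clusters of both genotypes and 55.6 and 41.6 CPM in wild type endothelium, but 2.28 and 9.29 CPM in Sl/Sl endothelium, with log2 fold changes of -0.32 ± 0.62 for wild type and -3.67 ± 0.69 for Sl/Sl (adjusted p = 0.0405, edgeR's quasi-likelihood test). The difference between these, as an interaction, was 3.35 with an unadjusted p of 0.00475 and an adjusted p of 0.902. Mcm6 was the other S phase gene past the threshold in Sl/Sl, where 2 of 20 fell beside 1.84% of all genes. In wild type 3 of 20 fell beside 3.68% of all genes (Mcm7, Mcm5 and Mcm6, with log2 fold changes of -1.43, -1.30 and -1.15). The median over the 20 genes was -0.80 in wild type and -0.53 in Sl/Sl.

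The mitotic genes were also lower in endothelium. In wild type 7 of 20 fell in endothelium (where 3.68% of all genes fell), with Kif11, a spindle motor (-1.99 ± 0.34, adjusted p = 0.0134, edgeR's quasi-likelihood test), Cdc20, an activator of the anaphase-promoting complex (-1.85 ± 0.44, adjusted p = 0.047), and Top2a, a topoisomerase (-1.53 ± 0.35, adjusted p = 0.0403), furthest, and 0 rose (4.56% of all genes). In Sl/Sl 0 of 20 passed at the adjusted threshold (2.83% of all genes) and 0 of 20 at an unadjusted p under 0.05 (14.4% of all genes). The median was -0.25, where it was -0.92 in wild type. As an interaction, 0 of 20 and 0% of all genes passed the adjusted threshold. An unadjusted p under 0.05 was found there for 3 of 20, beside 5.29% of all genes. Over both genotypes 8 of 20 fell (8.12% of all genes), led by Kif11 (-1.34 ± 0.23), Cdc20 (-1.34 ± 0.30) and the kinase Aurka (-1.26 ± 0.38).

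**Figure D4:**
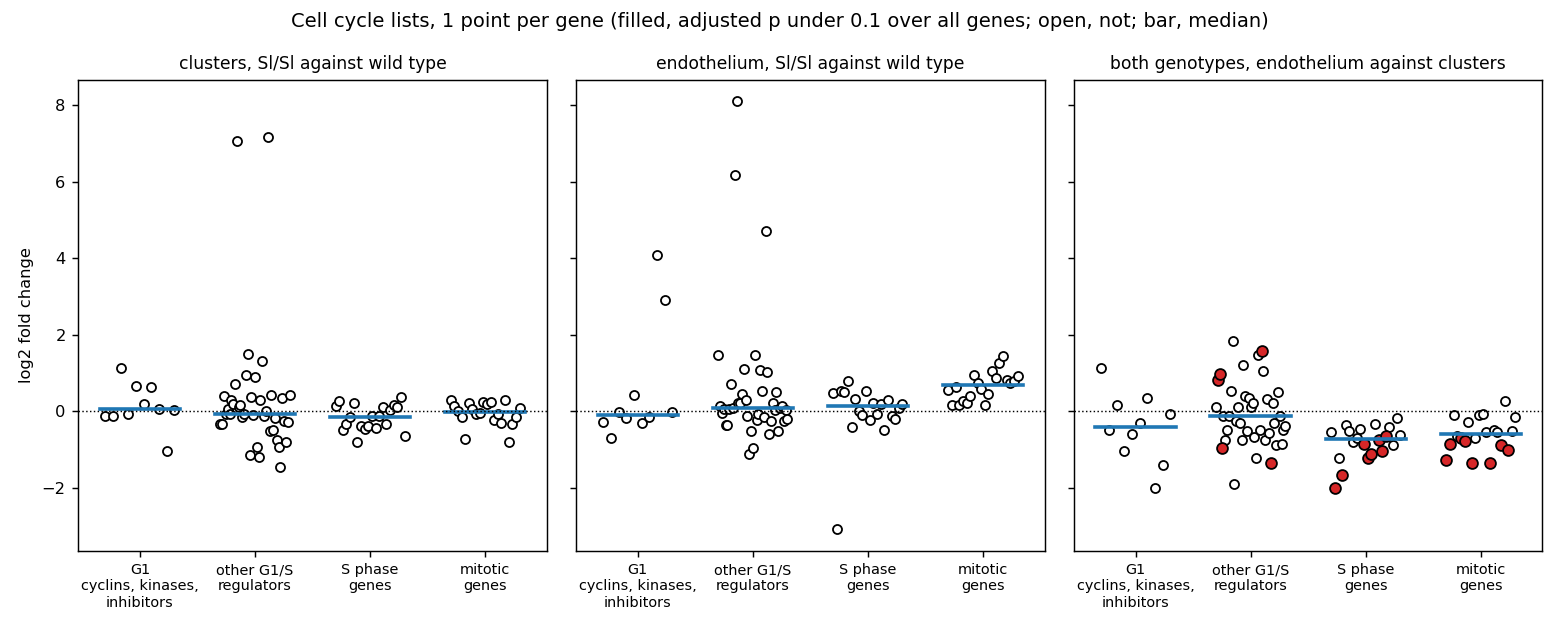
Log2 fold change (y axis) of every tested gene of the 4 cell cycle lists (x axis) in Sl/Sl against wild type clusters (left), Sl/Sl against wild type endothelium (middle) and endothelium against clusters over both genotypes (right), with filled points past an adjusted p of 0.1 and a bar at the median. S phase and mitotic medians lie at -0.71 and -0.59 on the right, and all 20 mitotic genes lie above 0 in the middle.

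Between genotypes 0 genes of the 3 lists passed the adjusted threshold in clusters or in endothelium by edgeR's quasi-likelihood test. In clusters 0 of the 39, 20 and 20 tested genes had an unadjusted p under 0.05, beside 4.22% of all genes. In endothelium all 20 mitotic genes were higher in Sl/Sl, with a median log2 fold change of 0.68 and 7 of 20 at an unadjusted p under 0.05, beside 1.83% of all genes in that direction. Their summed level was 2470 and 4167 CPM in wild type endothelium, 5112 and 5199 CPM in Sl/Sl endothelium and 4920 to 6426 CPM in the 4 cluster libraries, so that the wild type endothelium, and most of all its replicate 1, was the lowest group in mitotic transcripts. The median was 0.14 for the S phase genes and -0.09 for the G1 genes in that comparison.

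Among the 39 other G1/S regulators, over both genotypes, 3 rose in endothelium and 2 fell, shares no larger than the 8.48% and 8.12% of all genes. Those that rose were Foxo1, a forkhead factor active in quiescent cells (1.59 ± 0.41, adjusted p = 0.0389, edgeR's quasi-likelihood test), and the antiproliferative genes Btg2 (0.98 ± 0.22, adjusted p = 0.0248) and Btg1 (0.82 ± 0.26, adjusted p = 0.0812), and those that fell were Mycn, a Myc family factor (-1.35 ± 0.32, adjusted p = 0.0292), and cyclin A2, Ccna2 (-0.95 ± 0.33, adjusted p = 0.0999). Btg2 was at 144 to 155 CPM in all 4 endothelial libraries and 52.3 to 89.8 CPM in all 4 cluster libraries. In wild type alone 1 of 39 rose (Btg2) and 2 of 39 fell, beside 4.56% and 3.68% of all genes. Those that fell were Mycn and Mdm2, the ubiquitin ligase that is both a target and a brake of p53. Mdm2 was at 121 and 93.6 CPM in wild type clusters and 45.3 and 29.4 CPM for wild type endothelium, with a log2 fold change of -1.52 ± 0.38 (adjusted p = 0.0607, edgeR's quasi-likelihood test), and Sl/Sl had 77.2 and 72.8 CPM in clusters and 86.6 and 67.1 CPM in endothelium. Mdm2 and Cdkn1a were thus both lowest in wild type endothelium, with no overlap of that group with the other 3 for either gene. The share of all genes with this pattern was not counted, and a shared cause was not tested. In Sl/Sl 0 of the 39 passed, with 5 at an unadjusted p under 0.05 beside 14.4% of all genes.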

How the data were processed

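RNA was measured in 8 libraries of 100 cells, 2 per group, mapped to groups from the sample labels. The authors prepared SMARTSEQ2 libraries, which carry no molecular identifiers, aligned 75 bp read pairs to mm9 with STAR 2.4.2a, merged lanes and counted with featureCounts (Subread 1.4.5), and deposited unnormalized counts per gene for each library, with the gene's exon length. The gene annotation, the strand setting and the treatment of reads with several matches are not given in the sources used here. In all, 27 gene names of the table had become dates and were tested but not named.

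Counts were fitted in all 8 libraries with edgeR 4.0.16 (R 4.3.3, limma 3.58.1), with TMM factors, filterByExpr, which kept 13908 genes and all 10 G1 genes, the quasi-likelihood test, 7 contrasts and Benjamini-Hochberg adjustment over all genes tested, with the study's threshold of 0.1. Residual and prior degrees of freedom were 4 and 5.24, and the biological coefficient of variation was 0.817. SE is the log2 fold change divided by the square root of F, and 95% intervals use the summed degrees of freedom. The fit was also run on simulated counts with the same dispersion for every gene, as a check of its operation. That run does not measure power for the genes and changes reported here. CPM used TMM-scaled totals and RPKM plain totals with the table's exon lengths. Cells came from pools of 1 to 4 embryos in 2 sorting experiments, and the study calls the 2 libraries of a group biological replicates, but the sources used here do not tie a library to a pool or a sort, so no term for the sort could be fitted. The 7 contrasts share libraries and are not independent of each other.

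All 10 members were named, and of the other lists the 3 genes furthest in each direction among those past the threshold. The members and the lists were chosen with earlier results of these data known. Alternatives were DESeq2 1.42.0, RLE factors, other count filters, a threshold of 0.05, edgeR on 4 libraries, a replicate block and leaving out each library. Promoters are from RefSeq GRCm38.p6, a different build, and were matched by symbol only.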

Additional observations from a re-analysis of the deposited data

Results flagged for a closer look

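The estimated genotype effect on Cdkn1a was of opposite sign in the 2 cell types, but its sign in clusters was not established. The log2 fold change was -1.04 ± 0.95 (SE) in clusters, with an unadjusted p of 0.299 in edgeR's quasi-likelihood test. In endothelium the log2 fold change was 2.92 ± 1.02. The nearest cluster libraries were Sl/Sl replicate 2, at 33.2 CPM, and wild type replicate 1, at 37.7 CPM. In clusters the genotypes did not overlap for 32.7% of all genes. The change in Sl/Sl clusters minus the change in Sl/Sl endothelium was -3.96 on the log2 scale, with every Sl/Sl cluster library below both wild type cluster libraries and every Sl/Sl endothelial library above both wild type endothelial libraries. It had an unadjusted p of 0.0182 and an adjusted p of 0.902 in edgeR's quasi-likelihood test over 13908 genes, and so it failed the correction. Over the alternatives the adjusted p reached 0.0753 at its lowest, with no filter on low counts, and 0.169 in DESeq2. Leaving out wild type endothelium replicate 1 gave -6.31, and leaving out replicate 2 of that group gave -3.13.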

How the results depend on the processing

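The count of G1 genes past the threshold stayed at 0 in the 3 comparisons of Sl/Sl with wild type (clusters, endothelium, both) under every alternative run. With no filter beyond 1 count it became 1 in the interaction (Cdkn1a), 2 in wild type endothelium against clusters (Cdk4, Cdkn1a) and 3 over both genotypes (Cdkn1a, Ccne1, Ccnd1). DESeq2 on 8 libraries gave 2 in wild type (Cdkn1a, Cdk6), 1 in Sl/Sl (Ccnd2) and 3 over both (Ccne1, Ccnd1, Ccnd2), and on 4 libraries 2 in wild type (Cdk4, Cdkn1a). At least 10 counts in every library gave 2 over both genotypes (Ccnd2, Ccne1), on a smaller set of genes that leaves out Cdk6 and Cdkn1a. Leaving out 1 library gave 0 to 1 in wild type and 0 to 2 over both genotypes, with 1 sample in an arm whose spread is taken from the others. RLE factors, a threshold of 0.05 and edgeR on 4 libraries changed no count. Except where stated, the cause was not tested.

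The replicate numbers did not pair the samples (correlations of deviations from -0.113 to 0.175 between groups). With the replicate block, 1 G1 gene passed over both genotypes (Ccnd1, adjusted p = 0.0451), 8 genes of the whole table passed in clusters between genotypes, where 0 had, and no other count of G1 genes changed.

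For the whole table, genes past the threshold between genotypes numbered 0 in the reported fit, and in clusters 175 and 107 in DESeq2 on 8 and 4 libraries, 253 without a filter and 9 at 10 counts, in endothelium 178, 55, 65 and 0, in the interaction 175, 179 and 0 in DESeq2 on 8 libraries, without a filter and at 10 counts, and over both cell types 125, 171 and 0. Endothelium against clusters gave 2613 in wild type, 1631 in Sl/Sl and 3614 over both in DESeq2 on 8 libraries, 2448 and 1604 on 4, and 1990, 1266 and 3021 without a filter. Against the reported 1146, 393 and 2310, a threshold of 0.05 gave 657, 222 and 1488, and edgeR on 4 libraries gave 959 and 211. Leaving out 1 library gave 6 to 76 in clusters and 592 to 1329 in wild type.

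Of 1046 alternative log2 fold changes of the G1 genes, 977 stayed within 1 SE of the reported value without a new call, 42 moved further, 27 gained a call and 0 turned a called direction, and 71 had the other sign. Counts were low for Cdk6, at 3 to 145 per library, and for Cdkn1a in wild type endothelium replicate 2, which had 9 counts. The part of sequencing depth in these counts was not tested.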
